A study of Mus musculus with 12 samples.

Results

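Chemokines are small secreted proteins that guide white blood cells, and chemokine receptors are the G protein-coupled receptors on which they act. The 54 genes described here, 35 ligands and 19 receptors of 30176 genes on the array, were taken by name: every transcript cluster whose single gene symbol begins with Ccl, Cxcl, Cx3cl, Xcl, Ccr, Cxcr, Cx3cr, Xcr or Ackr followed by a number. Each of them is read here by 1 transcript cluster, the set of probes that the array summarises as 1 transcribed region. Further clusters that name Ccl19 or Ccl27a together with other genes were not used. The RNA of the 54 genes was measured on 12 Affymetrix mouse transcriptome arrays. There were 3 arrays of gonadal fat and 3 of ovary for DHT-treated mice, and as many for control mice. The labels do not state whether both tissues came from the same mice. All the animals were C57BL/6J females. At 25 days of age the DHT-treated mice received a silicone capsule holding 5 mg of dihydrotestosterone (DHT), an androgen that aromatase does not turn into estrogen, and the control mice received an empty one, and both kept it for about 60 days as a model of the androgen excess of polycystic ovary syndrome. The labels call the arrays of a group biological replicates, and both tissues were taken whole, so that every value mixes all the cell types of the organ.

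Chemokines are sorted by the spacing of their first cysteines into the CC, CXC, C and CX3C classes, and by use into homeostatic ligands, which keep cells in their places in healthy tissue, and inflammatory ligands, which cytokines switch on. Typical receptors signal through Gi proteins, while atypical receptors bind ligand without that signal and clear or carry it. In the ovary, white blood cells enter and leave with ovulation and with the life of the corpus luteum, and in fat a resident population of macrophages takes part in the upkeep and the remodelling of the tissue.

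The values are on the log2 scale, so that a difference of 1 is a 2-fold change. Array medians lay between 3.30 and 3.52 in gonadal fat and between 4.35 and 4.43 in the ovaries, and levels were not compared between the tissues. In the gonadal fat columns 26501 of 65929 clusters (40.2%) stood beside the name of another cluster and were re-paired, 17 of the 54 chemokine and receptor clusters among them. A gene was tested in a tissue if at least 3 of that tissue's 6 arrays had it above their own median, and it was called at an adjusted p of at most 0.10 in limma. On that rule 511 genes rose and 234 fell in gonadal fat (68.6% of the calls higher, 84.2% after centring each array on its median), and 104 rose and 137 fell in the ovaries (43.2% higher, 30.5% after centring). With 3 mice per group the smallest two-sided p of an exact permutation test is 0.10. The 7 adipocyte marker genes averaged 10.63, 10.50 and 10.51 in DHT-treated mice, against 10.01, 10.02 and 10.13 in control mice, on the gonadal fat arrays. In the ovaries the 7 averaged 6.35, 5.83 and 5.98 in DHT-treated mice, against 7.20, 6.61 and 6.49 in control mice. There 6 had a lower and 1 a higher mean, and Lipe was called lower (adjusted p = 0.0902), beside 1.26% of all genes called. The part of adipocyte transcripts in the ovary values was not tested. Of the corpus luteum markers 6 were tested in the ovaries, and their average was 7.32, 7.80 and 7.73 in DHT-treated mice, against 9.33, 10.50 and 10.74 in control mice. Of these, Cyp11a1, Star, Akr1c18 and Ptgfr fell. DHT replicate 3 and control replicate 2 of the ovaries carried the highest average of the oviduct epithelium markers, 7.20 and 7.47, against 5.28 to 6.36 on the other arrays.

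The receptors passed the filter less often than the ligands. Of all 30176 genes 19251 passed in gonadal fat and 19118 in the ovaries. In gonadal fat 34 of the 54 genes passed the filter, 25 of 35 ligands and 9 of 19 receptors, and in the ovaries 31 did, 23 ligands and 8 receptors. Both tissues shared 30 of these genes, while 4 were tested in gonadal fat alone, 1 in the ovaries alone and 19 in neither. No tested member passed through the arrays of 1 group alone. The genes with no array above the median were 16 in gonadal fat and 21 in the ovaries. In the ovaries they included Ccr1, the receptor for Ccl3, Ccl6 and Ccl9, Ccr3, the eotaxin receptor of eosinophils, and Ccr4, the receptor for Ccl17 and Ccl22. A value under the median is no proof that a transcript is absent. The rows whose name holds several genes, such as those of Ackr3 and Ccl21a, were not analysed here.

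**Figure D1:**
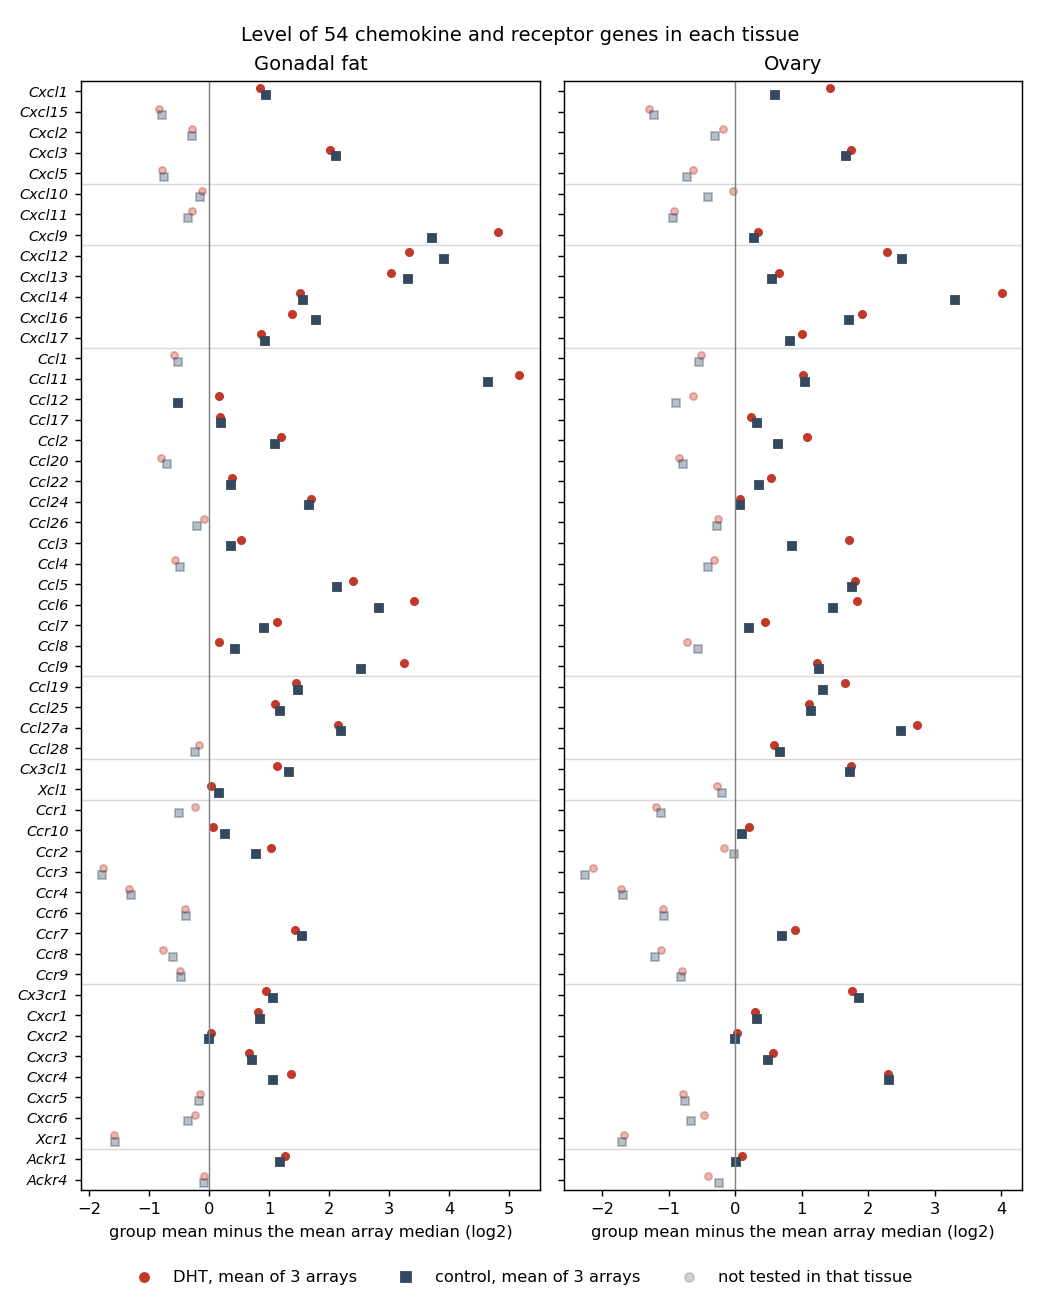
Group mean of each of the 54 genes minus the mean array median of its tissue (log2), gonadal fat on the left and ovary on the right, DHT as circles and control as squares (3 arrays each), with genes that were not tested drawn pale. In gonadal fat Ccl11 and Cxcl9 stand farthest to the right and in the ovary Cxcl14 does, while most of the receptors lie near or below 0.

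The ligands with the highest values in gonadal fat were Ccl11, Cxcl9, Cxcl12, Cxcl13 and Ccl6, and the receptors Ccr7, Ackr1, Cxcr4, Cx3cr1 and Ccr2. In the ovaries they were Cxcl14, Ccl27a, Cxcl12, Cxcl16 and Ccl5 among the ligands, and Cxcr4, Cx3cr1, Ccr7, Cxcr3 and Cxcr1 among the receptors. These orders rest on probe signal, which depends on the probes of each cluster as well as on the transcript, and were not tested. Within a tissue they place Ccl11 above 96.7% of the clusters in gonadal fat and Cxcl14 above 92.9% in the ovaries.

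In gonadal fat 1 of the 34 tested members, the macrophage chemokine Ccl9, rose with DHT, and none fell, against a background of 3.87% of 19251 genes called, 2.65% higher and 1.22% lower. At an unadjusted p under 0.05 there were 6 members, where the share over all genes was 16.2%. The groups did not overlap in 5 members, 2 with DHT above (14.5% of all genes) and 3 with DHT below (8.23%). The median log2 change over the tested members was -0.03, against -0.01 over all genes. It was 0.05, against 0.03 over all genes, after quantile normalization, and 0.05, against 0.07, after median centring, so its sign changed with a scaling that moved all genes. Higher means were seen in 15 members, against 9363 of the 19251 genes, in 21 (against 11057) after quantile normalization and in 22 (against 12885) after median centring. Single changes ranged between -0.58 and 1.10.

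Higher means were frequent among the inflammatory CC ligands of gonadal fat. Of 12 tested, 10 had a higher mean in DHT-treated mice (11 after quantile normalization or median centring) with a median log2 change of 0.19, and 1 passed the test. That gene, Ccl9, encodes a ligand of Ccr1 that mouse macrophages and other myeloid cells make, and it has no direct human counterpart. Its log2 values were 6.83, 6.71 and 6.40 in DHT-treated mice, against 6.26, 5.71 and 5.86 in control mice. The lowest DHT array stood above the highest control array. The log2 change was 0.70 ± 0.17 (SE, adjusted p = 0.0841), a 1.63-fold difference. The call was lost without DHT replicate 1 (adjusted p = 0.214), DHT replicate 2 (0.279), control replicate 2 (0.193) or control replicate 3 (0.260), after median centring (0.146) and with no filter (0.123), and its fold is under the 2-fold of the study's methods, while the change stayed between 0.59 and 0.86.

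Ccl6, the neighbour of Ccl9 in the same CC cluster of mouse chromosome 11 and a ligand of the same receptor, read 6.88, 6.97 and 6.58 in DHT-treated mice, against 6.61, 6.05 and 6.04 in control mice. Control replicate 1 lay inside the DHT range, as the highest control array for Ccl9 was also replicate 1. The log2 change of Ccl6 was 0.58 ± 0.18 (SE, adjusted p = 0.156), which did not pass. Their shared receptor Ccr1 was below the filter in gonadal fat, with 3.66, 2.94 and 2.93 in DHT-treated mice, against 3.11, 2.78 and 2.82 in control mice, and only DHT replicate 1 was above its array median.

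The macrophage markers also had higher means in these fat pads. All 12 were tested in gonadal fat, and each had the higher mean in DHT-treated mice under every scaling. Of the 12, 1 was called, beside 3.87% of all genes. It was Mertk, a receptor for the uptake of dying cells, with a log2 change of 0.50 ± 0.11 (SE, adjusted p = 0.0726). The average of the 12 on each array was 7.08, 7.15 and 6.89 in DHT-treated mice, against 6.99, 6.61 and 6.36 in control mice. Control replicate 1 stood above DHT replicate 3 and above both other controls, as it did for Ccl6. None of the 12 was under the median on all arrays, and their part in the values of Ccl9 and Ccl6 was not tested. In whole tissue, more cells of a type and more RNA per cell cannot be told apart.

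Ccl11, or eotaxin, the ligand of Ccr3 that draws eosinophils into tissue, was the chemokine with the highest signal in gonadal fat. It read 8.36, 8.70 and 8.65 in DHT-treated mice, against 8.14, 8.26 and 7.77 in control mice. The groups did not overlap, yet the log2 change of 0.52 ± 0.15 (SE, adjusted p = 0.142) did not pass the test. Its receptor Ccr3 read 1.67, 1.60 and 1.68 in DHT-treated mice, against 1.48, 1.65 and 1.76 in control mice, far below the array medians. Of the 4 eosinophil markers Siglecf, Prg2 and Il5ra had no array above the median in gonadal fat, and the other one was tested and not called.

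No other inflammatory CC ligand of gonadal fat was called. Ccl5, which acts on T cells and monocytes, read 5.69, 5.83 and 5.92 in DHT-treated mice, against 5.30, 5.87 and 5.45 in control mice, a log2 change of 0.27 ± 0.15 (SE, adjusted p = 0.414). The monocyte ligands Ccl2 and Ccl7 had changes of 0.09 and 0.20, with 95% intervals of -0.30 to 0.49 and -0.14 to 0.54. Ccl12, the third mouse ligand of Ccr2, was the least even of them, with 4.24, 2.82 and 3.65 in DHT-treated mice, against 2.38, 2.64 and 3.64 in control mice. Ccr2 itself, the receptor through which monocytes leave the marrow and enter tissue, read 4.47, 4.48 and 4.39 in DHT-treated mice, against 4.58, 3.96 and 4.05 in control mice, and its log2 change was 0.25 ± 0.16 (SE, adjusted p = 0.482). It passed the test only without control replicate 1, the array with the highest control value (adjusted p = 0.0843).

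Cxcl9, a ligand of Cxcr3 that interferon gamma induces and that attracts activated T cells and natural killer cells, had the largest difference of means of any tested member in gonadal fat. Its values were 8.51, 7.74 and 8.40 in DHT-treated mice, against 6.54, 7.84 and 6.97 in control mice. Control replicate 2 lay inside the DHT range, above DHT replicate 2. The log2 change was 1.10 ± 0.33 (SE, adjusted p = 0.152), a 2.14-fold difference that did not pass. It was called by the criteria of the study's methods, a 2-fold change and an unadjusted p of at most 0.01 (0.00987 in limma), where it was the 1 member called, and in the fit of all 12 arrays (adjusted p = 0.0415). Without control replicate 2 the change was 1.46 with an adjusted p of 0.0514, and without each other array in turn the adjusted p lay between 0.205 and 0.372.

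The other ligands of Cxcr3 had low signal. Cxcl10 read 3.21, 3.24 and 3.44 in DHT-treated mice, against 3.03, 3.68 and 3.06 in control mice, and Cxcl11 2.91, 3.13 and 3.32 in DHT-treated mice, against 3.02, 3.07 and 3.07 in control mice. Both were under the filter, with 1 of 12 such values above an array median. Cxcr3 differed little between the groups, with a log2 change of -0.04 ± 0.11 (SE, adjusted p = 0.865) whose sign turned under both other scalings.

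Of the listed interferon response factors, interferon gamma and its receptor, 11 genes were tested in gonadal fat. Of these 2 rose and none fell, where 2.65% of all genes rose and 1.22% fell. The 2 risen genes were the subunits of the interferon gamma receptor. Ifngr1, which binds the cytokine, read 8.70, 8.67 and 8.41 in DHT-treated mice, against 7.45, 7.52 and 7.31 in control mice, a log2 change of 1.17 ± 0.11 (SE, adjusted p = 0.00353). Ifngr2, the signalling chain, read 7.70, 7.66 and 7.67 in DHT-treated mice, against 7.33, 7.24 and 7.25 in control mice, and its log2 change was 0.40 ± 0.08 (SE, adjusted p = 0.0541). Both were also called in the difference between the tissues, gonadal fat minus ovary, beside 6.14% of 18080 genes. It was 1.08 ± 0.12 (SE, adjusted p = 0.00138) for Ifngr1 and 0.34 ± 0.09 (SE, adjusted p = 0.0649) for Ifngr2. Of the 11 genes 5 had a higher and 6 a lower mean in gonadal fat, with a median of -0.08. Ifng, the cytokine itself, had no array above the median in either tissue.

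The CXC ligands of homeostatic or other use held lower means in gonadal fat, where none of the 5 tested passed and all 5 had the lower mean in DHT-treated mice. Under quantile normalization or median centring 2 of the 5 turned to a higher mean. Cxcl12, which stromal cells make and which holds Cxcr4-bearing blood cells in the marrow and in tissue, read 6.35, 7.04 and 6.83 in DHT-treated mice, against 7.44, 7.41 and 7.12 in control mice. Every DHT array was below every control array, and the log2 change was -0.58 ± 0.18 (SE, adjusted p = 0.16). Its receptor Cxcr4 had a higher mean in DHT-treated mice, 4.69, 4.60 and 5.004 in DHT-treated mice, against 4.17, 4.67 and 4.60 in control mice, with overlapping groups and a log2 change of 0.29 ± 0.16 (SE, adjusted p = 0.419).

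Cxcl16, a membrane-bound ligand of Cxcr6 that is also a scavenger receptor for oxidised lipoprotein, read 4.79, 4.80 and 4.76 in DHT-treated mice, against 5.52, 5.07 and 4.99 in control mice in gonadal fat. The DHT arrays were close together and below all controls, with a log2 change of -0.41 ± 0.14 (SE, adjusted p = 0.2). The membrane-bound ligand Cx3cl1, or fractalkine, was also below all controls, with 4.55, 4.50 and 4.57 in DHT-treated mice, against 4.63, 4.88 and 4.70 in control mice and a change of -0.19 ± 0.09 (SE, adjusted p = 0.361). Cxcr6 stayed below the filter, and Cx3cr1, the fractalkine receptor of monocytes and resident macrophages, had a change of -0.12 ± 0.10 (SE, adjusted p = 0.588).

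Fibroblast and mesothelial markers were read beside these lower values. The 7 stromal fibroblast markers tested in gonadal fat averaged 7.91, 8.07 and 8.03 in DHT-treated mice, against 9.08, 8.15 and 8.13 in control mice, and Lum, the small proteoglycan lumican, fell by 2.03 on the log2 scale (adjusted p = 0.0319). Of the 7, 3 had a higher and 4 a lower mean. The 6 mesothelium markers all had a lower mean in DHT-treated mice under every scaling, with array averages of 6.34, 6.02 and 5.64 in DHT-treated mice, against 6.75, 6.45 and 6.38 in control mice, and Wt1 fell by 0.73 (adjusted p = 0.0522). Over all genes tested in gonadal fat 3.87% were called. The part of these markers in the values of Cxcl12 and Cxcl16 was not tested.

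Cxcl13, the B cell chemokine of lymphoid follicles and of the lymphoid clusters of visceral fat, differed more within the groups than between them in gonadal fat. It read 7.81, 6.09 and 5.41 in DHT-treated mice, against 7.88, 5.97 and 6.30 in control mice. Replicate 1 of each group stood highest, and the other arrays lay between 5.41 and 6.30. The log2 change of -0.28 ± 0.66 (SE, adjusted p = 0.851) had a 95% interval of -1.79 to 1.23, the widest of the family. Its receptor Cxcr5 was below the median on every array, as were 3 of the 8 B cell markers on the array, Ms4a1, Cr2 and Fcer2a. The other 5 were tested and none was called.

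**Figure D2:**
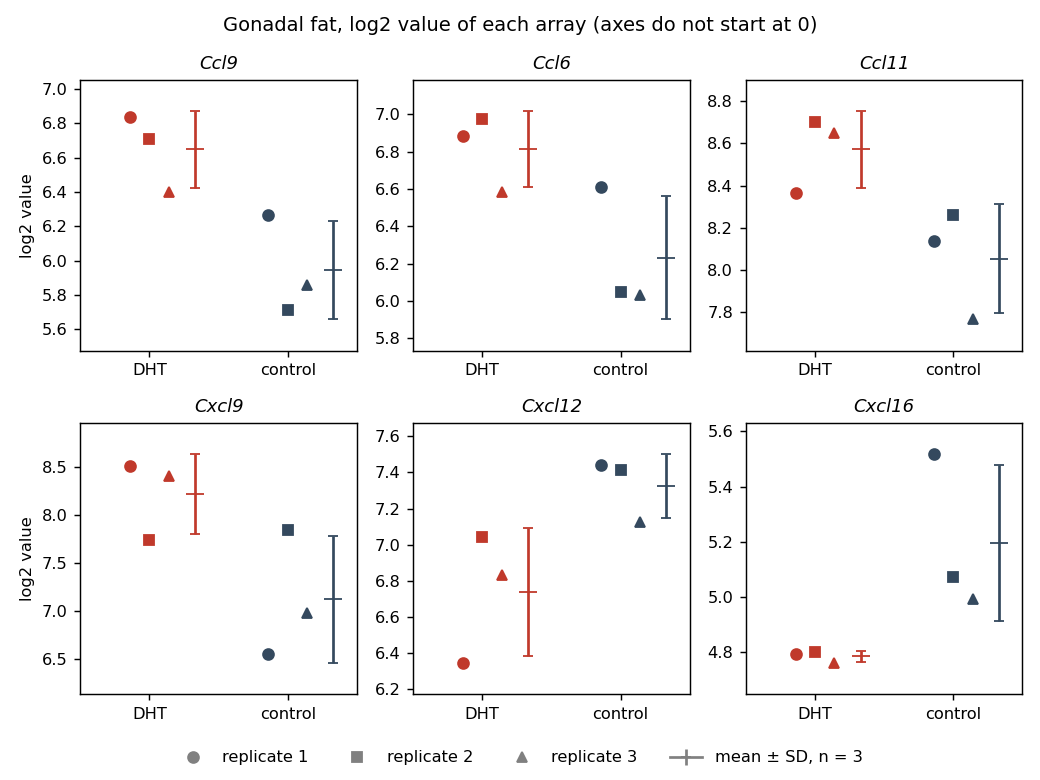
Log2 value of 6 chemokines in gonadal fat, DHT on the left and control on the right of each panel, with a symbol for each replicate and the mean ± SD (n = 3) beside it, on axes that do not start at 0. The DHT arrays lie above all controls for Ccl9 and Ccl11 and below all controls for Cxcl12 and Cxcl16, while Ccl6 and Cxcl9 each have a control array inside the DHT range.

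No homeostatic CC ligand and no receptor was called in gonadal fat. Ccl19, the ligand that with Ccr7 brings dendritic cells and T cells into lymphoid tissue, had a log2 change of -0.03 ± 0.13 (SE, adjusted p = 0.923), and Ccr7 one of -0.13 ± 0.13 (SE, adjusted p = 0.676). Ccl27a and its receptor Ccr10, known from the homing of T cells to skin, had changes of -0.04 and -0.20, neither called. The neutrophil ligands Cxcl1 and Cxcl3 had changes of -0.10 and -0.10. None of the 9 tested receptors passed, and all 9 had 95% intervals inside a 2-fold change in either direction. This was the case for 21 of the 25 tested ligands.

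In the ovaries 1 of the 31 tested members, the neutrophil chemokine Cxcl1, rose with DHT and none fell, beside a background of 1.26% of 19118 genes called, 0.544% higher and 0.717% lower. At an unadjusted p under 0.05 there were 7, against 13.3% of all genes. Higher means were seen in 22 members and lower means in 9, and the split was 19 and 12 after quantile normalization or median centring. Over the 19118 genes the higher means were 9252, 7973 after quantile normalization and 6339 after median centring. The DHT arrays lay above all controls in 7 members (6.88% of all genes) and below all controls in 2 (13.1%). The median log2 change was 0.09, against -0.00 over all genes, and single changes ran between -0.23 and 0.87. DHT replicate 2 was the highest of the 6 arrays in 14 of the 31 members, where it was so in 14.5% of all genes, and DHT replicate 1 was the lowest in 11, against 23.0% of all genes.

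Cxcl1 acts through Cxcr2 to draw neutrophils, and cells of many kinds make it when the transcription factor NF-kappaB is switched on. Its log2 values in the ovaries were 5.68, 6.15 and 5.64 in DHT-treated mice, against 4.96, 5.04 and 4.96 in control mice. The controls were within 0.1 of each other and all DHT arrays stood above them, replicate 2 highest. The log2 change was 0.84 ± 0.14 (SE, adjusted p = 0.0777), a 1.79-fold difference. The change kept its sign and lay between 0.68 and 0.96 in all 16 alternative analyses, and it was called in 6 of them. The adjusted p was above 0.10 without DHT replicate 1, DHT replicate 3 or any 1 of the controls (up to 0.221), and without both arrays with the most oviduct transcripts. The call was also lost with no filter and with the replicate number as a block. It was lost at a threshold of 0.05 and by the criteria of the study's methods too.

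Other members of the neutrophil-directed group were not called. Cxcl3 read 6.05, 6.23 and 6.14 in DHT-treated mice, against 6.05, 6.06 and 6.05 in control mice, a log2 change of 0.09 ± 0.06 (SE, adjusted p = 0.651). Cxcl2 and Cxcl5 were below the array median on all arrays, Cxcl2 with 4.09, 4.33 and 4.23 in DHT-treated mice, against 3.98, 4.16 and 4.15 in control mice. Their receptor Cxcr2 sat at the median with a change of 0.03 ± 0.06 (SE, adjusted p = 0.91) whose sign turned under both other scalings. Of 7 neutrophil markers 1 was tested in the ovaries, and S100a8, Ngp and Retnlg were under the median on every array.

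Promoter sequence is shown for the 3 members called in a tissue or in the difference between tissues, as the 250 bases before the start of transcription in RefSeq (build GRCm38.p6, 5′ to 3′ on the strand of the gene). Capitals mark matches to the NF-kappaB consensus, to TTCNNNGAA, the site of STAT factors that interferon gamma activates, and to TATAAA, each searched on both strands.
Cxcl1, chr5:90890995-90891244 (+ strand): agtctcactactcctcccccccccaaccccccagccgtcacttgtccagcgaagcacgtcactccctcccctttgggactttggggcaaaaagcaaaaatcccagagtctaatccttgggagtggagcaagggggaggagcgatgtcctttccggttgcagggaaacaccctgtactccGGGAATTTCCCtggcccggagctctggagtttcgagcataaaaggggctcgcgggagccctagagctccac
Cxcl14, chr13:56296552-56296801 (- strand): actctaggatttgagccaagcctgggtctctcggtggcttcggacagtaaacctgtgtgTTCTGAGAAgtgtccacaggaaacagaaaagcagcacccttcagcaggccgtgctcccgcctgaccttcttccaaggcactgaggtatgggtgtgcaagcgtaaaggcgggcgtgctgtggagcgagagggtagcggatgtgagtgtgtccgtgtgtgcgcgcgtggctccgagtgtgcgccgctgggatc
Ccl9, chr11:83578637-83578886 (- strand): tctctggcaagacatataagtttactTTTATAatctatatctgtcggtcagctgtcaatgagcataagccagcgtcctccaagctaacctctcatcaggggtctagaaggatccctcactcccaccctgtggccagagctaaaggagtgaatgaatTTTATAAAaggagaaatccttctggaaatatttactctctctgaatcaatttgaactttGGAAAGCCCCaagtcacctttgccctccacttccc
The Cxcl1 window held 2 NF-kappaB matches, which overlap. Cxcl14 had 1 STAT-type match, and Ccl9 had 1 NF-kappaB match and 3 TATAAA matches, 2 of them overlapping. Promoters were given for 40 of the 54 genes, and the member counts use promoter 1 of each. Outside these counts, promoter 2 of Ccr6 held 2 NF-kappaB matches and promoter 2 of Ccl25 held 1 TATAAA match. The NF-kappaB consensus was matched in 9 of them (22.5%), against 7.01% of 27025 mouse promoters of that length, and the 9 were Ccl1, Ccl9, Ccl20, Ccr1, Ccr3, Cxcl1, Cxcl2, Cxcl3 and Cxcl10. The STAT-type letters occurred in 3 (7.5%, against 7.18% of all promoters) and TATAAA in 11 (27.5%, against 13.0%). The palindromic androgen response element was matched in 0 of the 40 windows and in 12 of the 27025. A match describes the letters only. Of the 9 members with an NF-kappaB match, Ccl9, Cxcl1 and Cxcl3 were tested for a change and the other 6 were under the filter in both tissues.

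Cxcl14 had the highest signal of any chemokine in the ovaries and the smallest p after Cxcl1. It is an old, conserved chemokine of epithelium and stroma that attracts monocytes and whose receptor is not settled. Its values were 8.54, 8.35 and 8.31 in DHT-treated mice, against 7.61, 7.49 and 7.98 in control mice. The DHT arrays stood above all controls, and the log2 change was 0.71 ± 0.14 (SE, adjusted p = 0.111), just outside the threshold. It was called after quantile normalization, in the fit of all 12 arrays, with the filter at the 75th percentile and without control replicate 3, the highest control, which makes 4 of 17 alternatives.

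Ccl3, an inflammatory ligand of Ccr1 made by macrophages, had the widest difference of means in the ovaries. It read 5.75, 6.58 and 5.99 in DHT-treated mice, against 5.04, 5.45 and 5.23 in control mice. All DHT arrays were above all controls, and DHT replicate 2 was the farthest out. The log2 change was 0.87 ± 0.22 (SE, adjusted p = 0.179), 1.82-fold, and it did not pass. Ccl4, its close relative, was below the array median throughout, with 4.01, 4.17 and 4.06 in DHT-treated mice, against 3.90, 4.05 and 3.997 in control mice.

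Of the 10 inflammatory CC ligands tested in the ovaries none was called, 7 had a higher and 3 a lower mean, and 6 and 4 did after either other scaling. Ccl2, the chief monocyte chemokine, read 5.10, 5.92 and 5.38 in DHT-treated mice, against 4.99, 5.16 and 4.94 in control mice, with control replicate 2 above DHT replicate 1 and a change of 0.44 ± 0.20 (SE, adjusted p = 0.427). Ccl22, a dendritic cell product that acts on Ccr4, read 4.93, 4.90 and 4.99 in DHT-treated mice, against 4.64, 4.83 and 4.79 in control mice, a change of 0.19 ± 0.07 (SE, adjusted p = 0.308) without overlap. Ccl6 ranged more widely among the DHT arrays than between the groups, with 5.62, 6.58 and 6.46 in DHT-treated mice, against 5.96, 5.74 and 5.90 in control mice, and Ccl9 read 5.19, 5.95 and 5.74 in DHT-treated mice, against 5.60, 5.52 and 5.83 in control mice. For both, DHT replicate 1 was the lowest of all 6 arrays.

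The macrophage markers of the ovaries had DHT replicate 1 lowest as well. The 12 averaged 6.94, 7.50 and 7.39 in DHT-treated mice, against 6.98, 6.95 and 7.21 in control mice, with DHT replicates 2 and 3 the highest. Of the 12, 9 had a higher mean (8 after median centring). Mertk alone was called, beside 1.26% of all genes, with a log2 change of 0.86 ± 0.13 (SE, adjusted p = 0.0587). The part of these markers in the values of Ccl3, Ccl2 and Ccl6 was not tested.

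The pair that gathers T cells and dendritic cells had small, even differences in the ovaries. Ccl19 read 5.95, 6.17 and 6.04 in DHT-treated mice, against 5.66, 5.69 and 5.77 in control mice, a log2 change of 0.34 ± 0.07 (SE, adjusted p = 0.14). Its receptor Ccr7 read 5.24, 5.35 and 5.27 in DHT-treated mice, against 5.12, 5.10 and 5.04 in control mice, a change of 0.20 ± 0.06 (SE, adjusted p = 0.211). In both, all DHT arrays exceeded all controls, and neither passed. Ackr4, the atypical receptor that clears Ccl19, was below the median on every array. Copies of Ccl19 and of Ccl27a elsewhere in the mouse genome are nearly the same in sequence, so the signal of these clusters may not come from 1 gene.

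T cell and dendritic cell markers were read beside this pair. The 7 T cell markers tested averaged 4.96, 5.26 and 5.20 in DHT-treated mice, against 4.79, 4.77 and 4.95 in control mice. Each had the higher mean in DHT-treated mice (6 of 7 after median centring). Cd4 alone was called, beside 1.26% of all genes, with a log2 change of 0.47 ± 0.09 (SE, adjusted p = 0.0962). Cd2 and Cd28 were under the median on all arrays. The 7 dendritic cell markers tested averaged 5.01, 5.36 and 5.29 in DHT-treated mice, against 5.06, 5.08 and 5.13 in control mice. Of these 6 had a higher mean (3 after median centring), with a median log2 change of 0.03, against 0.17 for the T cell markers, and none was called. The part of both sets of markers in the values of Ccl19 and Ccr7 was not tested.

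Ccl27a read 6.995, 7.21 and 7.16 in DHT-treated mice, against 6.92, 6.91 and 6.84 in control mice, a log2 change of 0.24 ± 0.07 (SE, adjusted p = 0.235) without overlap, while Ccr10 differed by 0.11 ± 0.12 (SE, adjusted p = 0.791) and Ccl28, its other ligand, by -0.09 ± 0.24 (SE, adjusted p = 0.946). Cxcl12 had lower values in DHT-treated mice, as in gonadal fat, with 6.49, 6.77 and 6.76 in DHT-treated mice, against 6.98, 6.96 and 6.79 in control mice and a log2 change of -0.23 ± 0.10 (SE, adjusted p = 0.385), each DHT array below each control. Cxcr4, the receptor with the highest signal in the ovaries, read 6.25, 6.93 and 6.88 in DHT-treated mice, against 6.50, 6.996 and 6.61 in control mice, with overlapping groups and a 95% interval of the change of -0.52 to 0.50. Beside Cxcl12, the 7 stromal fibroblast markers of the ovaries averaged 8.20, 8.46 and 8.47 in DHT-treated mice, against 9.08, 8.79 and 8.40 in control mice, 6 of them with a lower mean and none called, and their part in it was not tested.

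Cx3cr1 was the other member below all controls, with 6.15, 6.11 and 6.18 in DHT-treated mice, against 6.29, 6.25 and 6.21 in control mice and a small change of -0.11 ± 0.05 (SE, adjusted p = 0.466). Its ligand Cx3cl1 had a change of 0.01, whose sign turned with the scaling. Ccl5 and Cxcl16, both among the ligands with the most signal, had changes of 0.05 and 0.19 with 95% intervals of -0.13 to 0.23 and -0.22 to 0.60. The interferon ligand Cxcl9, prominent in gonadal fat, was near the array median in the ovaries and read 4.76, 4.66 and 4.79 in DHT-treated mice, against 4.52, 4.90 and 4.61 in control mice. None of the 8 tested receptors was called, and all 8 intervals lay inside a 2-fold change, as did those of 20 of the 23 tested ligands.

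**Figure D3:**
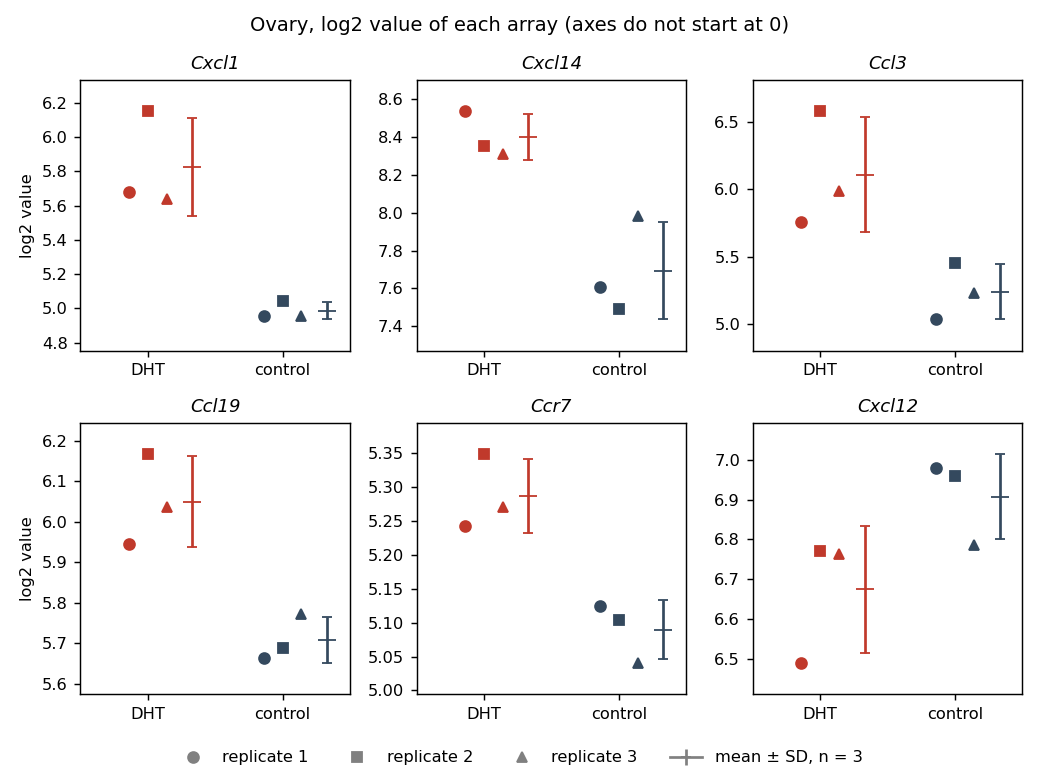
Log2 value of 6 members in the ovary, DHT on the left and control on the right of each panel, with a symbol for each replicate and the mean ± SD (n = 3) beside it, on axes that do not start at 0. The DHT arrays lie above all controls for Cxcl1, Cxcl14, Ccl3, Ccl19 and Ccr7 and below all controls for Cxcl12, and replicate 2 is the highest DHT array for Cxcl1, Ccl3, Ccl19 and Ccr7.

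**Figure D4:**
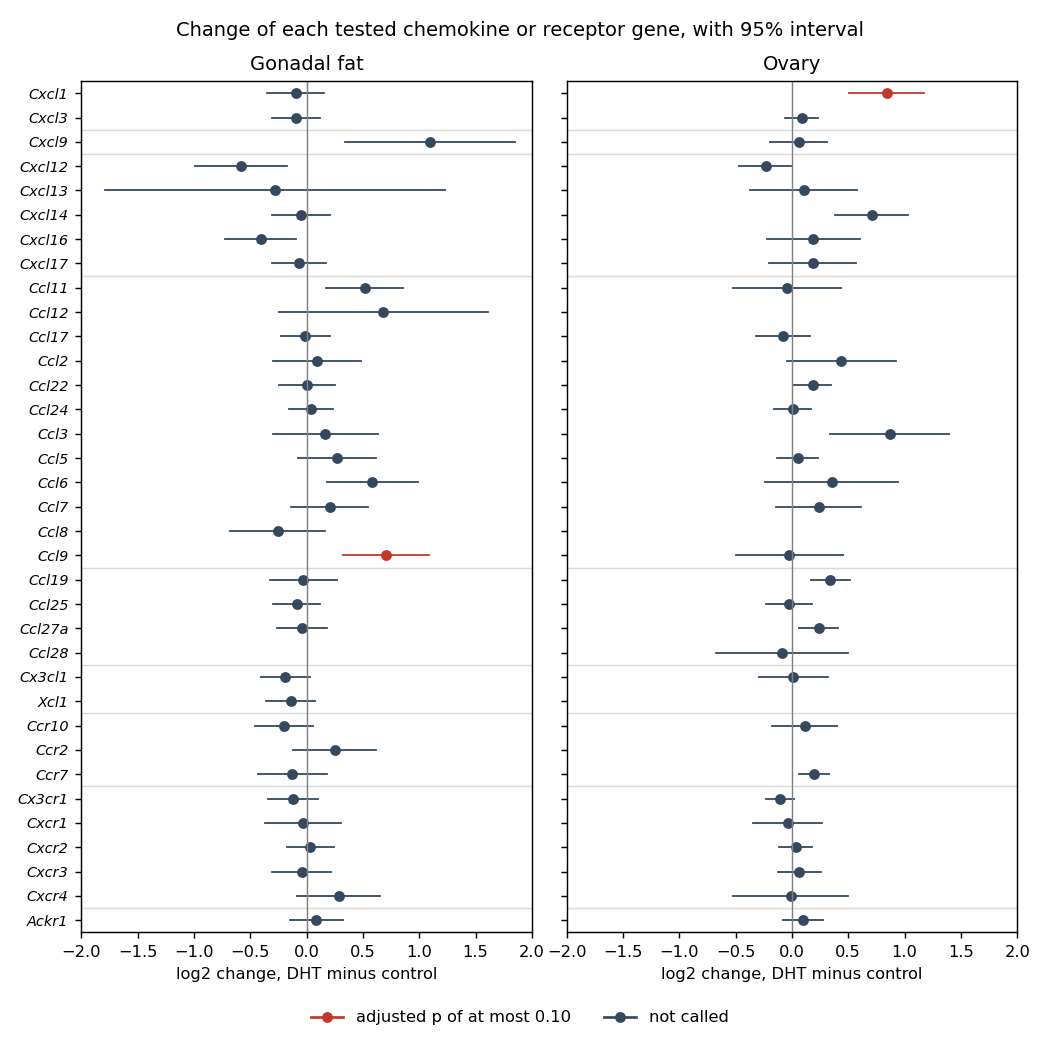
Log2 change, DHT minus control, of the 35 members tested in at least 1 tissue, grouped by role from neutrophil ligands at the top to atypical receptors at the bottom, with 95% intervals from limma, gonadal fat on the left and ovary on the right. The called genes, in red, are Ccl9 in gonadal fat and Cxcl1 in the ovary, and no receptor is called in either tissue.

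Whether the tissues responded differently was tested on the difference of the changes, gonadal fat minus ovary, in 1 fit of the 12 arrays. Of the 30 members tested in both, 2 were called, each with the smaller change in gonadal fat, beside 6.14% of 18080 genes called (4.63% with the higher change in gonadal fat and 1.51% with the lower). At an unadjusted p under 0.05 there were 7, against 19.6% of all genes. The signs of the changes were the same in both tissues in 15 of the 30.

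Cxcl1 had a log2 change of -0.10 in gonadal fat and of 0.84 in the ovaries. Its gonadal fat values were 4.32, 4.12 and 4.36 in DHT-treated mice, against 4.21, 4.49 and 4.39 in control mice, with overlapping groups. The difference was -0.94 ± 0.18 (SE, adjusted p = 0.0214). It was called in all 20 alternatives in which the gene was tested, with adjusted p between 0.0118 and 0.0582.

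Cxcl14 had a change of -0.05 in gonadal fat, where the sign turned with the scaling, and of 0.71 in the ovaries. In gonadal fat it read 4.91, 4.90 and 4.95 in DHT-treated mice, against 4.90, 5.20 and 4.82 in control mice. The difference was -0.76 ± 0.18 (SE, adjusted p = 0.0493), and it was called in 16 of 19 alternatives. The call was lost without ovary DHT replicate 1, ovary control replicate 2 or gonadal fat DHT replicate 2 (adjusted p up to 0.11).

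The members with the larger change in gonadal fat did not reach a call in the main fit. The difference was 0.73 ± 0.28 (SE, adjusted p = 0.175) for Ccl9, 1.04 ± 0.40 (SE, adjusted p = 0.175) for Cxcl9 and 0.56 ± 0.26 (SE, adjusted p = 0.275) for Ccl11. With the replicate number as a block across the tissues, 2237 genes were called in place of 1110, and Cxcl9 joined the calls (adjusted p = 0.0939). Cxcl16, Ccl19 and Ccl27a had differences in the direction of the ovaries of -0.60 ± 0.23 (SE, adjusted p = 0.185), -0.37 ± 0.16 (SE, adjusted p = 0.217) and -0.28 ± 0.12 (SE, adjusted p = 0.218). Some of these differences were called when 1 array was left out. They were Ccl9 and Ccl19 without gonadal fat control replicate 1, and Cxcl9 without gonadal fat control replicate 2. Cxcl16 was called without ovary DHT replicate 1, and Ccl27a and Ccr7 without gonadal fat DHT replicate 3.

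**Figure D5:**
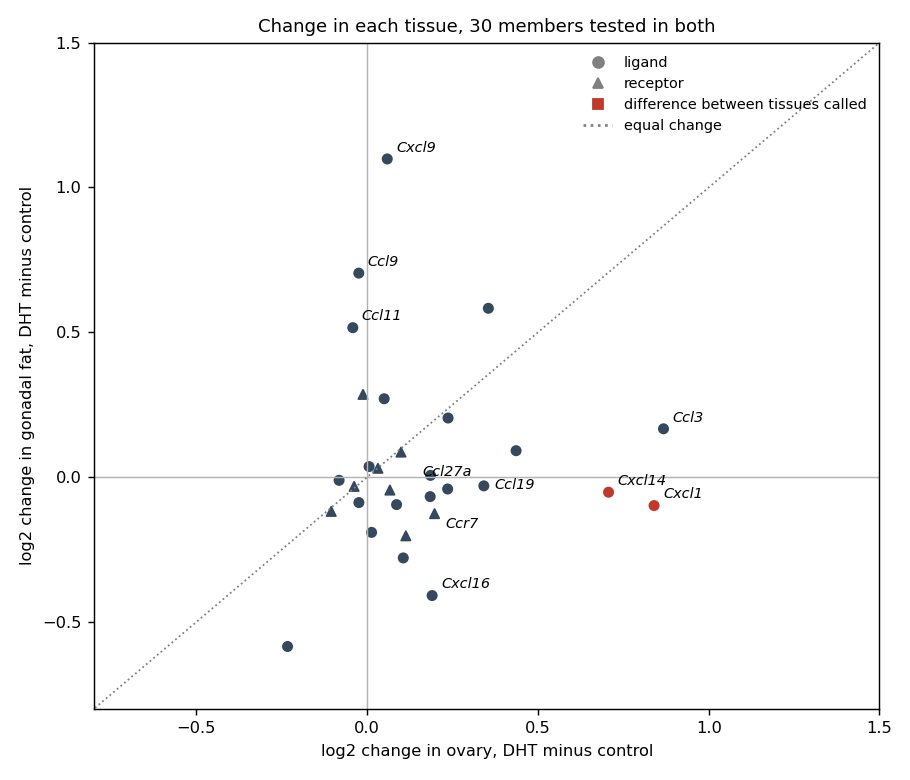
Log2 change with DHT in gonadal fat (vertical axis) against that in the ovary (horizontal axis) for the 30 members tested in both, ligands as circles and receptors as triangles, with a dotted line where the changes are equal. Cxcl1 and Cxcl14, in red, are the members whose difference between tissues was called, and Cxcl9, Ccl9 and Ccl11 lie along the vertical axis.

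A list of 39 genes that carry the signal of chemokine receptors into the cell was read beside the family. Of 32 tested in gonadal fat 2 rose and 2 fell (3.87% of all genes were called there), and in the ovaries 1 of 32 fell (1.26% of all genes called). Rgs16, which speeds the shut-off of Gi signalling and so damps chemokine receptors, fell in both tissues. In gonadal fat it read 4.83, 4.89 and 4.63 in DHT-treated mice, against 8.25, 7.03 and 7.98 in control mice, a log2 change of -2.97 ± 0.28 (SE, adjusted p = 0.00353). In the ovaries it read 5.33, 5.37 and 5.59 in DHT-treated mice, against 6.06, 6.27 and 6.09 in control mice, a change of -0.72 ± 0.09 (SE, adjusted p = 0.046). The difference between the tissues was -2.25 ± 0.33 (SE, adjusted p = 0.00586).

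The other calls of that list within a tissue were in gonadal fat. Gnai1, a Gi alpha subunit, read 9.51, 9.19 and 9.24 in DHT-treated mice, against 8.30, 8.16 and 8.38 in control mice, a log2 change of 1.03 ± 0.11 (SE, adjusted p = 0.00608). The receptor kinases, which mark active receptors for arrestin, went opposite ways: Grk5 had a change of 0.71 ± 0.09 (SE, adjusted p = 0.0104) and Grk3 one of -0.46 ± 0.10 (SE, adjusted p = 0.0738). In the difference between tissues 5 of the 32 were called higher and 3 lower, beside 6.14% of all genes. It was 0.82 ± 0.13 (SE, adjusted p = 0.0071) for Grk5 and -0.64 ± 0.13 (SE, adjusted p = 0.0226) for Grk3. For Gnai1 it was 0.69 ± 0.15 (SE, adjusted p = 0.0305). These genes serve many other Gi-coupled receptors, and the cells that carry the signal cannot be read from whole tissue.

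Among 22 tested cytokines, cytokine receptors and NF-kappaB factors that induce chemokine genes, 2 rose in gonadal fat and none fell, beside 3.87% of all genes called, while 0 of 23 were called in the ovaries, beside 1.26% of all genes. The risen genes were Il17rc, a subunit of the interleukin 17 receptor, with a log2 change of 0.47 ± 0.09 (SE, adjusted p = 0.0436), and Il1r1, the interleukin 1 receptor, with 0.64 ± 0.15 (SE, adjusted p = 0.0776). Il1a, Il1b and Il6 had no array above the median in gonadal fat, nor did Il6 in the ovaries. The proteases and proteoglycans that cut or hold chemokines had 2 of 18 called in gonadal fat and 0 of 19 in the ovaries, beside the same shares of all genes. Both calls were lower with DHT: Gpc3, a cell-surface heparan sulfate proteoglycan, fell by 0.94 on the log2 scale (adjusted p = 0.033), and Mmp2, a gelatinase that trims Cxcl12, fell by 0.88 (adjusted p = 0.0725). Gpc3 alone of 18 was also called in the difference between tissues, -1.02 ± 0.22 (SE, adjusted p = 0.0328), beside 6.14% of 18080 genes. Other chemoattractants and their receptors, such as complement and leukotriene receptors, had no call within a tissue, among 20 in gonadal fat and 18 in the ovaries. In the difference between tissues 1 of 18 was called, Pf4, whose symbol lies outside the name rule by which the family was taken. Its difference was 0.76 ± 0.19 (SE, adjusted p = 0.0520), with the higher change in gonadal fat, beside 6.14% of 18080 genes.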

How the data were processed

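RNA of gonadal fat and ovary from DHT-treated and control mice was read on 12 Affymetrix mouse transcriptome arrays, 3 per tissue and treatment. The authors deposited 1 log2 value per transcript cluster and array (0.698 to 13.2), already summarised and normalized. MAS5 is the tool in the submitters' processing notes. The normalization method was not given in the sources used here. No further step was applied. Precision is limited by how many arrays there are.

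Gene symbols came from the platform's annotation: 30638 clusters had 1 symbol, 2176 several (21 of them with a chemokine name) and 33115 none, and only the first kind was used. The 26501 gonadal fat clusters of chromosomes 10 to 19, with 58 unplaced ones of chromosome 1, were re-paired by sorting their names with "_" ahead of digits. Their r with the ovary means, across clusters, was 0.0139 as deposited and 0.946 after it, against 0.943 over the other 39428. The highest-mean cluster stood for a gene.

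Changes are DHT minus control from limma 3.58.1 (lmFit and eBayes, R 4.3.3), fitted in each tissue by itself, with Benjamini-Hochberg adjustment over all genes tested there. The difference between tissues came from 1 fit of 4 group means over 18080 genes. The filter at the array median stands in for a detection rate of 50% and is no detection call. The study's methods name SAM, which permutes the sample labels and was not run. The scripts were tested on simulated data. The members and the gene lists were chosen with earlier results of these data known, so lists are described by counts and medians with no test.

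Genes were named by a rule: members called, the 10 smallest p per tissue, members without overlap and at least 1.5-fold apart, the 5 ligands and 5 receptors with the highest mean, their partners, and up to 4 called genes per list. Ccl1, Ccl4, Ccl17, Ccl20, Ccl21a, Cxcl2, Cxcl3, Cxcl5 and other members outside it are given as relatives or by their promoters.

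After removal of group means, the gonadal fat and ovary arrays of the same number correlated across genes. The r was 0.139, 0.156 and 0.192 for DHT and 0.114, 0.110 and 0.128 for control. The labels do not state that same-numbered arrays came from the same mouse. The main fit of the difference between tissues did not use the numbers, while an alternative did. Within a tissue the numbers did not pair DHT with control. Alternatives were quantile normalization, median centring, other filters, the mean of a gene's clusters, an intensity trend, 1 fit of all arrays, the replicate block, other thresholds, other row orders, leaving out the arrays with the most oviduct transcripts, and leaving out each array.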

Additional observations from a re-analysis of the deposited data

Results flagged for a closer look

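The changes of 2 members differed between the tissues by the test of the difference itself (limma, gonadal fat minus ovary). For Cxcl1 it was -0.94 on the log2 scale (adjusted p = 0.0214), from a change of -0.10 in gonadal fat and of 0.84 in the ovaries. For Cxcl14 it was -0.76 (adjusted p = 0.0493), from -0.05 in gonadal fat and 0.71 in the ovaries. Groups of 3 arrays were not searched for single arrays that stand apart.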

How the results depend on the processing

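Among 1353 alternative values of the named members none that was called in either setting changed its sign, 21 gained and 21 lost a call, and 88 that were never called changed sign (log2 changes of -0.18 to 0.30 in the alternatives). In gonadal fat the 745 called genes became 456 after median centring, 1923 in 1 fit of all arrays, 336 at an adjusted p of at most 0.05, 123 by the criteria of the methods (2-fold and p of at most 0.01), 472 with the undisplaced rows alone and 138 to 634 without each array. The 1 called member became 0 after median centring, with no filter, at 0.05, in the deposited row order and in the undisplaced rows (where Ccl9 has another gene's values or none), 3 (Ccl9, Cxcl9 and Cxcl12) in the fit of all arrays and 0 to 3 without each array. By the methods' criteria it was Cxcl9 in place of Ccl9. In the ovaries the 241 genes became 439 in the fit of all arrays, 87 at 0.05, 99 by the methods' criteria, 5 without both arrays with the most oviduct transcripts and 43 to 181 without each array. The 1 called member became 2 after quantile normalization and in the fit of all arrays, 0 with no filter, at 0.05, by the methods' criteria and without the oviduct-rich arrays, and 0 to 1 without each array. For the difference between tissues the 1110 genes became 531 at 0.05, 668 in the undisplaced rows and 520 to 2050 without each array, and the 2 members became 0 with the filter at the 75th percentile, where neither was tested, 1 in the undisplaced rows, which leave out Cxcl14, and 1 to 4 without each array. Median centring moved the median of all differences between tissues to 0.13, against 0.01, and the share of calls higher in gonadal fat to 89.5%, against 75.4%. Where not named, the cause was not tested.

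Replicate numbers within a tissue gave r across genes of 0.268, -0.184 and -0.173 between DHT and control arrays in gonadal fat. In the ovaries they gave 0.411, -0.178 and -0.525. DHT replicate 3 with control replicate 2 gave 0.598 in gonadal fat and 0.785 in the ovaries. Whether a replicate number marks a step shared by DHT and control arrays was not tested. With that replicate block 1122 genes and 5 members (Ccl6, Ccl9, Ccl11, Cxcl9 and Cxcl12) were called in gonadal fat, and 3 genes and 0 members in the ovaries. With the block across tissues 2237 genes and 3 members were called.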
